A study of Homo sapiens with 9 samples.

Results

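The genes MYH4, ATP2B2, TM4SF4, HSD17B2, ADH6 and KYNU were described across 9 libraries of HuH-7, an established human hepatocellular carcinoma line. They were chosen from the measured counts, because their levels were lower in libraries of cells given acetaminophen than in the partner libraries without it. They are 6 of 63677 gene identifiers in the files, and all 6 were among the 18237 genes tested. The conditions were an untreated control, 10 mM acetaminophen, serum exosomes (the yield of 1 ml), 10 mM acetaminophen together with those exosomes, 2 mM caffeine, 10 mM acetaminophen together with 2 mM caffeine, 5 µM arsenic, 15 µM arsenic, and 5 µM arsenic together with 5 µM copper. Each condition is 1 library of ribosomal RNA-depleted total RNA, sequenced on an Ion Torrent instrument as part of a set of cell models of liver toxicity. Exposure times, the serum donor and the chemical form of arsenic and copper are not stated in the sources at hand. All groups share the same cell line, which is a tumour line and not primary hepatocytes.

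Levels are CPM, a gene's counts scaled to a library of fixed size, made comparable between libraries by TMM, the trimmed mean method of edgeR, and each carries an exact 95% Poisson interval. The libraries held 658725 (acetaminophen with exosomes) to 8227906 (caffeine) counts on genes, so 3 counts, taken here as the floor of detection, correspond to 3.82 CPM in the first and 0.351 CPM in the second. Reads come from PCR products that carry no molecular tags, so all intervals cover counting error only and none covers the variation between cultures. In bulk RNA, fewer cells with a transcript and less of it per cell cannot be told apart. All 12 hepatocyte markers had counts in every library, with a summed level of 10637 to 29262 CPM. Log2 levels relative to each gene's mean fell with GC content in the acetaminophen library (Pearson's r -0.51 over 17741 genes) and in the arsenic 5 µM library (r -0.40), whereas r was 0.16 in the control. The 6 genes have an exonic GC content of 37.6% (KYNU) to 53.5% (ATP2B2), beside a median of 49.1% over all genes tested.

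Acetaminophen is detoxified in the liver by conjugation, and the part that is oxidised forms a reactive quinone imine that depletes glutathione. The 6 genes belong to different branches of biology. KYNU encodes kynureninase, which cleaves kynurenines on the route from tryptophan to NAD. ADH6 encodes an alcohol dehydrogenase of the liver, and HSD17B2 encodes the hydroxysteroid dehydrogenase that inactivates estradiol and testosterone by oxidation. TM4SF4 is a tetraspanin-like membrane protein of the L6 family, found in liver and gut epithelium. ATP2B2 is a plasma membrane pump that exports calcium, best known in neurons and in hair cells of the inner ear, and MYH4 is a fast myosin heavy chain of skeletal muscle.

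The bases before the transcription start are shown for the 4 members with a single window in the RefSeq table, so that genes whose levels with arsenic differ, as described further on, can be set side by side. RefSeq windows (GRCh38.p14, 250 bases before to 50 after a start) matched 5 of the 6 genes with 8 windows, of which ATP2B2 has 4. The 250 bases before the start are printed 5′ to 3′ on the strand of the gene, with capitals at matches to the motifs searched. The TM4SF4 stretch is chr3:149474447-149474696 on the plus strand, KYNU is chr2:142877414-142877663 on the plus strand, MYH4 is chr17:10469560-10469809 on the minus strand, and ADH6 is chr4:99219247-99219496 on the minus strand.
TM4SF4: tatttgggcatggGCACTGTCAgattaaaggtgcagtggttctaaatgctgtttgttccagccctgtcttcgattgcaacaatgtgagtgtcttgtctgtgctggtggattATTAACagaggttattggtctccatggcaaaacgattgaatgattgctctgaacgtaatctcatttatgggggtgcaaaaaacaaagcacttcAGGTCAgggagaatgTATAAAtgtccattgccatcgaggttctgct
KYNU: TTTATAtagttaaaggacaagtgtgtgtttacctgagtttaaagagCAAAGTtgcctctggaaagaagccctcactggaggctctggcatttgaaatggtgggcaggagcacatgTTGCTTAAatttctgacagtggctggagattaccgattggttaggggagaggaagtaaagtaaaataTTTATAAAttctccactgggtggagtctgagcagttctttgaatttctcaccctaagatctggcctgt
MYH4: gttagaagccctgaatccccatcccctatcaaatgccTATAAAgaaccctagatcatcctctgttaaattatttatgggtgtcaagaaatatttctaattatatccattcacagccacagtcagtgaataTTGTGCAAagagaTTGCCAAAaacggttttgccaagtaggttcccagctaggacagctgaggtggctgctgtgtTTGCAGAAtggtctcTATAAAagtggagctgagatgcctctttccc
ADH6: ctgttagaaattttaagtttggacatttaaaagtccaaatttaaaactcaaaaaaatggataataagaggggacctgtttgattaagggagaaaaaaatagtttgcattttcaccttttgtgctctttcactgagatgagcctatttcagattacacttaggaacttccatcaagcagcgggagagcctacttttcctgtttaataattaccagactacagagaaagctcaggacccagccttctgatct
The motifs were searched on both strands of all 35116 windows: the HNF1 element GTTAAT (6.88% of windows), the HNF4 element CAAAGT (11.9%), the nuclear receptor element AGGTCA (13.8%), TTGCNNAA of C/EBP factors (10.5%), the TATA box TATAAA (11.5%), the NRF2 core TGACNNNGC (13.3%), the aryl hydrocarbon receptor core GCGTG (36.5%) and TGANTCA of AP-1 (7.71%). TM4SF4 and MYH4 each carry TATAAA 31 bases before the start. TM4SF4 also holds AGGTCA 46 bases and, on the other strand, GTTAAT 139 bases and TGACNNNGC 237 bases before the start. MYH4 holds 3 matches to TTGCNNAA and a second TATAAA 213 bases upstream. KYNU holds CAAAGT at 204 and TTGCNNAA at 135 bases before the start, and 2 of its 3 TATAAA matches, on opposite strands, overlap. The ADH6 window holds none of these motifs. In ATP2B2, GCGTG occurs in all 4 windows, but 2 of these cover nearly the same bases and hold the same matches. CAAAGT overlaps TGACNNNGC on opposite strands in 1 ATP2B2 window. The GC content of the ATP2B2 windows is 52.3% to 76.7%, against 38% in ADH6. TGANTCA is in none of the 8 windows. A match is a run of letters and not a measured binding site.

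The enzyme genes were low-abundance transcripts. KYNU (ENSG00000115919, chromosome 2) was at 3.86 CPM in the control (4 counts), 7.76 CPM with exosomes (26 counts) and 2.57 CPM with caffeine (22 counts). With acetaminophen it was at 1.40 CPM alone (2 counts), at 0 CPM with exosomes and at 0.188 CPM with caffeine (1 count), each under the floor of its library. In the arsenic libraries it was at 47.2 CPM (5 µM, 111 counts), 15.1 CPM (15 µM, 42 counts) and 29.7 CPM (5 µM with copper, 80 counts). The arsenic libraries therefore hold the highest KYNU levels and the acetaminophen libraries the lowest. The intervals of 15.1 CPM with arsenic at 15 µM (10.9 to 20.4) and of 7.76 CPM with exosomes (5.07 to 11.4) overlap. All other untreated, exosome and caffeine intervals lie below those of the arsenic libraries.

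ADH6 (ENSG00000172955, chromosome 4) was at 6.75 CPM in the control (7 counts), 12.2 CPM with exosomes (41 counts) and 20.2 CPM with caffeine (173 counts). With acetaminophen it was at 7.02 CPM alone (10 counts), 1.27 CPM with exosomes (1 count) and 1.88 CPM with caffeine (10 counts). With arsenic it was at 5.10 CPM (5 µM, 12 counts), 0.717 CPM (15 µM, 2 counts) and 3.34 CPM (5 µM with copper, 9 counts). The control and the acetaminophen library were within counting error of each other, and the caffeine library stood above all others without interval overlap. An antisense gene that overlaps ADH6, AP002026.1, took 123 counts over the 9 libraries, 68 of them with caffeine, beside 265 counts for ADH6. Whether the counting used strand is not stated there either, and reads of the pair may be split between them in any way.

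HSD17B2 (ENSG00000086696, chromosome 16) was at 23.2 CPM in the control (24 counts), 17.3 CPM with exosomes (58 counts) and 64.2 CPM with caffeine (549 counts). With acetaminophen it was at 11.9 CPM alone (17 counts), 1.27 CPM with exosomes (1 count) and 5.65 CPM with caffeine (30 counts). With arsenic it was at 1.28 CPM (5 µM, 3 counts), 5.74 CPM (15 µM, 16 counts) and 2.23 CPM (5 µM with copper, 6 counts). The caffeine library was the highest without overlap. The arsenic libraries and the acetaminophen libraries with a second agent were the lowest. Among these 5, each interval overlaps with that of the next in order, but arsenic at 5 µM (0.263 to 3.73 CPM) and acetaminophen with caffeine (3.81 to 8.07 CPM) do not overlap. Antisense reads were few at this locus (AC092142.1, 20 counts beside 704).

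Among the membrane genes, TM4SF4 (ENSG00000169903, chromosome 3) was at 12.5 CPM in the control (13 counts), 17.6 CPM with exosomes (59 counts) and 51.8 CPM with caffeine (443 counts). With acetaminophen it was at 0.702 CPM alone (1 count), 1.27 CPM with exosomes (1 count) and 1.88 CPM with caffeine (10 counts). With arsenic it was at 1.70 CPM (5 µM, 4 counts), 3.59 CPM (15 µM, 10 counts) and 3.71 CPM (5 µM with copper, 10 counts). No treated interval of the acetaminophen group alone or with caffeine reached those of the 3 libraries without acetaminophen or arsenic. The interval for acetaminophen with exosomes (0.0322 to 7.09 CPM) overlaps that of the control (6.68 to 21.5 CPM). So does that of the arsenic library with copper (1.78 to 6.82 CPM).

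ATP2B2 (ENSG00000157087, chromosome 3) was the most abundant of the 6 in counts and the best measured. It was at 117 CPM in the control (121 counts), 136 CPM with exosomes (457 counts) and 145 CPM with caffeine (1242 counts). With acetaminophen it was at 11.2 CPM alone (16 counts), 15.3 CPM with exosomes (12 counts) and 9.42 CPM with caffeine (50 counts). With arsenic it was at 30.2 CPM (5 µM, 71 counts), 16.9 CPM (15 µM, 47 counts) and 34.5 CPM (5 µM with copper, 93 counts). In order of level, the arsenic libraries lay between the acetaminophen libraries and those with neither agent, but they did not form a separate level. The interval of arsenic at 15 µM (12.4 to 22.4 CPM) overlapped with those of all acetaminophen libraries, and the other arsenic libraries overlapped with acetaminophen with exosomes alone (7.89 to 26.7 CPM) or not at all. MIR885, a microRNA gene inside ATP2B2 on the same strand, had 32 counts in all.

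MYH4 (ENSG00000264424, chromosome 17) was at 17.4 CPM in the control (18 counts), 27.2 CPM with exosomes (91 counts) and 26.1 CPM with caffeine (223 counts). With acetaminophen it had 0 counts alone, 1 count with exosomes (1.27 CPM) and 3 counts with caffeine (0.565 CPM), all at or under the floor. With arsenic it was at 33.2 CPM (5 µM, 78 counts), 32.3 CPM (15 µM, 90 counts) and 49.3 CPM (5 µM with copper, 133 counts). No acetaminophen interval overlapped with any other library, and the arsenic libraries were the 3 highest. Of 14 matched skeletal muscle markers, 11 had at most 6 counts in any library and TNNI2 had none, and the summed level of the list was 27.8 to 106 CPM, lowest in the library where MYH4 was highest. The myosin genes beside MYH4 on the chromosome (MYH13, MYH8, MYH1 and MYH2) had 2 to 6 counts each over all 9 libraries, and the antisense gene MYHAS had 1.

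**Figure D1:**
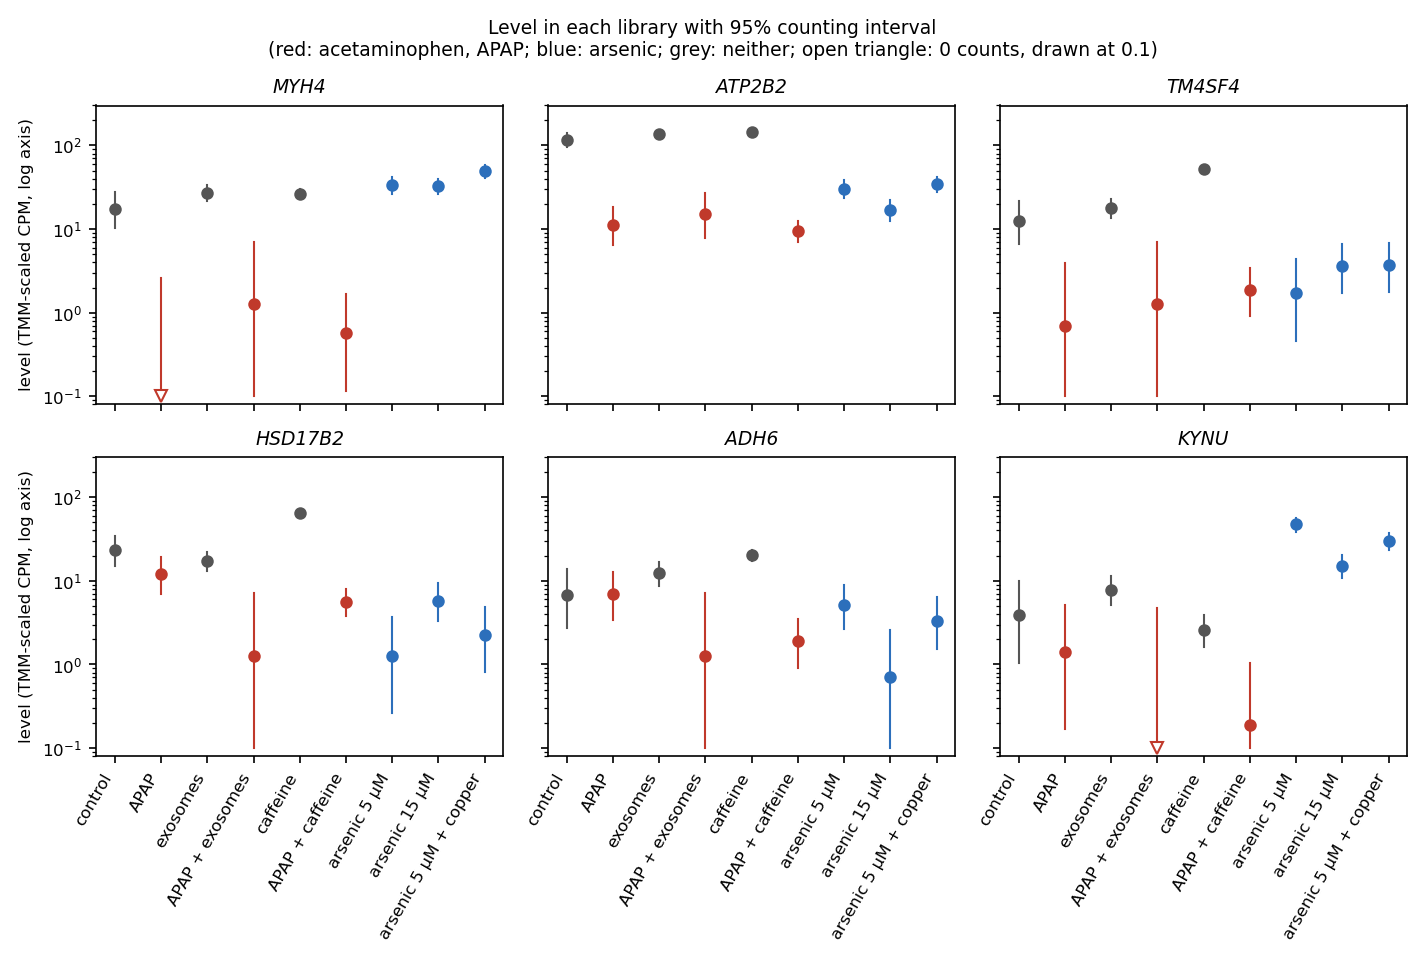
Level of each gene in the 9 libraries as TMM-scaled CPM on a log axis, with 95% counting intervals cut off at 0.1 CPM and libraries with 0 counts drawn as open triangles. ATP2B2 is at 117 to 145 CPM in the grey libraries and at 9.42 to 15.3 CPM in the red ones, and KYNU reaches 15.1 to 47.2 CPM in the blue ones.

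Per kilobase of exon, so that genes of different length can be set side by side, the median level over the 9 libraries was 4.34 CPM for MYH4, 2.92 CPM for ATP2B2, 1.68 CPM for TM4SF4, 1.16 CPM for ADH6, 0.601 CPM for HSD17B2 and 0.219 CPM for KYNU. Over the 9 libraries the log2 levels of ATP2B2 and TM4SF4 had a Pearson's r of 0.91, those of TM4SF4 and HSD17B2 0.80, and those of MYH4 and KYNU 0.82. HSD17B2 and KYNU had r -0.25. These values are descriptive, since the choice of genes fixes the contrast between the acetaminophen libraries and their partners.

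Acetaminophen was compared on 3 backgrounds that share no library: no other treatment, exosomes and caffeine. A gene was counted as apart when the ratio of CPM was at least 2 either way and its exact binomial interval excluded 1. Since the genes were picked on these ratios, the values describe the choice and no test is given. Without other treatment, 3 of the 6 genes were apart and lower (12.1% of all genes tested were). With exosomes, 6 of 6 were apart and lower (5.17% of all genes), and with caffeine 6 of 6 (13% of all genes). MYH4 had 0 counts with acetaminophen alone, where the upper limit of its ratio was 0.165. Its ratio was 0.0468 with exosomes (0.00117 to 0.267) and 0.0217 with caffeine (0.00444 to 0.0642). ATP2B2 had the steadiest ratios, 0.0962 alone (0.0533 to 0.163), 0.112 with exosomes (0.0574 to 0.197) and 0.0648 with caffeine (0.0479 to 0.086). TM4SF4 had ratios of 0.0560 (0.00132 to 0.373), 0.0722 (0.00180 to 0.418) and 0.0364 (0.0173 to 0.0675) in the same order. Alone and with exosomes, its level with acetaminophen rests on 1 count.

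The intervals of the enzyme genes included 1 on the untreated background. ADH6 had a ratio of 1.04 alone (0.357 to 3.22), HSD17B2 of 0.515 (0.260 to 1.00) and KYNU of 0.364 (0.0329 to 2.54), so none of the 3 was apart there. The KYNU ratio rests on 2 against 4 counts, and its interval includes the KYNU ratio on the caffeine background. With exosomes the ratios were 0.104 for ADH6 (0.00257 to 0.612) and 0.0734 for HSD17B2 (0.00183 to 0.426). KYNU had 0 counts with acetaminophen there, and the upper limit of its ratio was 0.649. With caffeine the ratios were 0.0931 for ADH6 (0.0439 to 0.175), 0.0880 for HSD17B2 (0.0588 to 0.127) and 0.0732 for KYNU (0.00177 to 0.453). Beside exosomes, the values of ADH6 and HSD17B2 with acetaminophen rest on 1 count each. The edgeR interaction coefficients of the 6 genes ran from log2 -2.14 to -0.02 for acetaminophen by caffeine and from -5.12 to 1.46 for acetaminophen by exosomes. They rest on the ratios used in the choice and are given as a description. Over all genes 0% passed in either, with 198 and 87 genes at an unadjusted p under 0.05 and 0 by DESeq2.

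**Figure D2:**
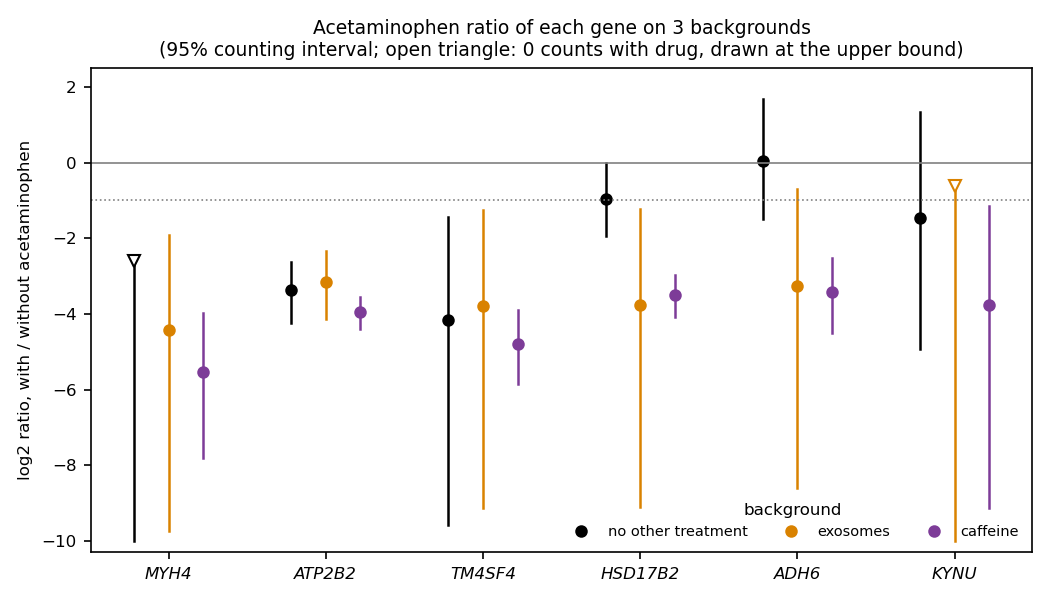
Log2 ratio of each gene with against without acetaminophen on 3 backgrounds, with 95% counting intervals cut off at the lower edge of the plot, a solid line at no difference and a dotted line at a 2-fold lower level. MYH4, ATP2B2 and TM4SF4 lie under the dotted line on all backgrounds, whereas ADH6 without other treatment has a ratio of 1.04.

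Over all 3 pairs together, the additive edgeR coefficient for acetaminophen was -5.42 for MYH4 (SE 0.838), -4.39 for TM4SF4 (SE 0.811), -3.51 for ATP2B2 (SE 0.602), -3.01 for KYNU (SE 0.930), -2.59 for HSD17B2 (SE 0.741) and -2.16 for ADH6 (SE 0.876). The genes were picked on this contrast, so these coefficients and SEs describe the choice and are no test of it. The enzyme genes depended on single libraries. Without the acetaminophen library, whose levels fell with GC content, the coefficient was -3.56 for HSD17B2, -3.35 for ADH6 and -4.13 for KYNU. Without the control it was -3.55, -3.34 and -4.12, and without caffeine ADH6 was at -1.27. When a trend on GC content and length was removed from each pair, the log2 ratio of HSD17B2 on the untreated background went from -0.94 to -1.41 and the gene was then apart, as it also was with DESeq2 size factors. ADH6 moved from 0.03 to -0.37 and stayed not apart.

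Caffeine, a methylxanthine that blocks adenosine receptors, was compared with the control and, in the presence of acetaminophen, with acetaminophen alone. The choice picked genes high in the caffeine, exosome and control libraries and low in the acetaminophen ones, so the directions in these caffeine and exosome pairs are partly set by it. TM4SF4, HSD17B2 and ADH6 stood higher in the caffeine library than in the control, 3 of 6 genes apart beside 11.6% of all genes. The ratio was 4.13 for TM4SF4 (2.39 to 7.82), 2.77 for HSD17B2 (1.84 to 4.37) and 3.0 for ADH6 (1.42 to 7.57). MYH4 (1.5, 0.929 to 2.58), ATP2B2 (1.24, 1.03 to 1.51) and KYNU (0.667, 0.227 to 2.66) were not apart. In the presence of acetaminophen, HSD17B2 had a ratio of 0.474 (0.253 to 0.916) and ADH6 of 0.269 (0.10 to 0.719) in acetaminophen with caffeine against acetaminophen alone, 2 of 6 genes apart and lower beside 15% of all genes. Neither was apart after removal of the GC and length trend. TM4SF4 was at 2.69 there (0.382 to 117), with 1 count in the acetaminophen library.

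In the additive edgeR fit no member passed for caffeine. The largest coefficient was that of TM4SF4 (log2 1.83, SE 0.897, adjusted p 0.681), and KYNU had the lowest (-1.30, SE 1.06, adjusted p 0.772). HSD17B2 (0.15, SE 0.848) and ADH6 (-0.23, SE 0.970) were near 0. Over all genes 0.0823% passed for caffeine. The direction for ATP2B2, HSD17B2 and ADH6 turned with the choice of libraries, as given with the alternatives.

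Exosomes, vesicles shed by cells and here collected from serum, left all 6 genes within counting error of the control, 0 of 6 apart beside 5.01% of all genes either way. The ratios ran from 0.748 for HSD17B2 (0.457 to 1.26) to 2.01 for KYNU (0.698 to 7.93). The best-measured gene, ATP2B2, had a ratio of 1.17 (0.955 to 1.44). With acetaminophen, the exosome library had 1 count of HSD17B2 where acetaminophen alone had 17, a ratio of 0.107 (0.00255 to 0.680), and this was the 1 gene of 6 apart and lower beside 8.89% of all genes. In edgeR the exosome coefficients ran from -1.60 (HSD17B2, SE 0.912) to 0.99 (MYH4, SE 0.944), all at adjusted p 1. Over all genes 0% passed, 113 had an unadjusted p under 0.05 and DESeq2 called 0.

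Arsenic, a metalloid toxic to liver cells, split the 6 genes. HSD17B2, ATP2B2 and TM4SF4 were lower than in the control in all 3 arsenic libraries, KYNU was higher in all 3, and MYH4 was not lower in any. The control was among the libraries picked for high levels of these genes, so a lower level beside it is partly set by the choice. At 5 µM, 3 of 6 genes were apart and lower (15% of all genes) and 1 of 6 apart and higher (16.4%). At 15 µM, 4 of 6 were lower (14.4%) and 1 higher (16.5%). With copper, 3 of 6 were lower (7.1%) and 2 higher (9.26%). Without TMM scaling the shares over all genes at 5 µM become 26.9% lower and 7.08% higher, and the median log2 ratio of all genes moves from -0.22 to -0.99. The directions named here for the 6 genes hold on each scale.

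KYNU had ratios to the control of 12.2 at 5 µM (4.65 to 45.7), 3.90 at 15 µM (1.42 to 15.0) and 7.69 with copper (2.89 to 28.9). The control value rests on 4 counts. The KYNU log2 ratio at 5 µM, 3.45, was 2.68 without TMM scaling and 2.33 with the GC and length trend removed, and the gene stayed apart on each. Without TMM scaling the other log2 ratios at 5 µM were 0.14 in place of 0.90 for MYH4, -2.71 in place of -1.95 for ATP2B2, -3.53 in place of -2.77 for TM4SF4, -4.75 in place of -3.99 for HSD17B2 and -1.21 in place of -0.44 for ADH6. MYH4 had ratios of 1.91 (1.13 to 3.39), 1.86 (1.11 to 3.28) and 2.84 (1.73 to 4.94), the last of them apart. HSD17B2 was at 0.0551 (0.0106 to 0.181), 0.248 (0.123 to 0.486) and 0.0961 (0.0321 to 0.241). ATP2B2 was at 0.259 (0.190 to 0.350), 0.144 (0.101 to 0.204) and 0.295 (0.223 to 0.390). TM4SF4 was at 0.136 (0.0322 to 0.439), 0.286 (0.112 to 0.706) and 0.296 (0.116 to 0.730), and at 15 µM and with copper it was no longer apart once the GC and length trend was removed. ADH6 was apart at 15 µM alone (0.106, 0.0108 to 0.558), on 2 counts against 7.

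The level that the additive edgeR model fits for libraries without arsenic rests in part on the libraries picked as high. The adjusted p of a member that lies below that level is therefore partly set by the choice. Against this level HSD17B2 was lower with arsenic (log2 fold change -3.83, SE 0.873, edgeR adjusted p 0.0295). It was the 1 member that passed, where 0.154% of all genes fell and 0.34% rose. The call was lost without the control (-5.48, adjusted p 0.662), without acetaminophen (-2.83, adjusted p 0.228), without exosomes (-3.58, adjusted p 0.0842), without acetaminophen with exosomes (-3.60, adjusted p 0.224), without caffeine (-3.43, adjusted p 0.0593) and without arsenic with copper (-3.64, adjusted p 0.0554) in edgeR. It held without acetaminophen with caffeine, without arsenic at 5 µM and without arsenic at 15 µM (edgeR adjusted p 0.0404, 0.00234 and 0.000911). It was also lost with DESeq2 size factors in edgeR (adjusted p 0.0654) and without the acetaminophen and arsenic 5 µM libraries together (-2.61, adjusted p 0.105), and it held by DESeq2 (-3.88, adjusted p 0.00789). ATP2B2 had a coefficient of -2.16 (SE 0.651, edgeR adjusted p 0.137), and passed by DESeq2 (adjusted p 0.0422) and in edgeR without arsenic at 5 µM (-2.28, adjusted p 0.0220).

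The other members did not pass for arsenic. TM4SF4 had a coefficient of -2.11 (SE 0.858, edgeR adjusted p 0.382), ADH6 of -2.51 (SE 1.06, adjusted p 0.416), KYNU of 2.37 (SE 1.08, adjusted p 0.485) and MYH4 of 1.31 (SE 0.820, adjusted p 0.685). The signs of all 6 coefficients were the same in each of the 13 other fits of this term, among them those that leave out 1 library.

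**Figure D3:**
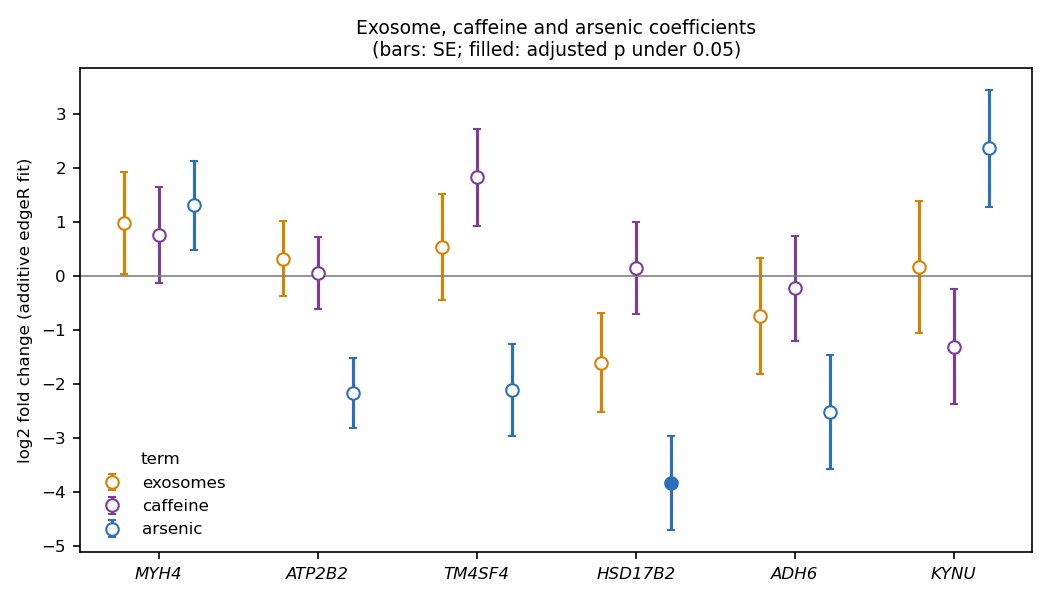
Additive edgeR coefficients on the log2 scale for exosomes, caffeine and arsenic, with bars of 1 SE and filled points for adjusted p under 0.05. HSD17B2 with arsenic (-3.83) is the filled point, and KYNU and MYH4 lie above 0 with arsenic where the other genes lie below it.

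The arsenic libraries can also be compared among themselves, and none of them was used in choosing the genes. From 5 to 15 µM, KYNU was lower (ratio 0.319, 0.218 to 0.459), ADH6 was lower (0.141, 0.0153 to 0.631) and HSD17B2 higher (4.50, 1.29 to 24.1). These were 3 of 6 genes apart beside 37.1% of all genes, a share near the background. MYH4 had a ratio of 0.973 (0.71 to 1.33), ATP2B2 of 0.558 (0.378 to 0.818) and TM4SF4 of 2.11 (0.608 to 9.21). KYNU and ADH6 have the lowest GC content of the 6 (37.6% and 42.3%), and levels fell with GC content in the 5 µM library alone of this pair. With that trend removed KYNU was at log2 -1.01 in place of -1.64 and ADH6 at -2.09 in place of -2.57, both still apart, and ATP2B2 became apart at -1.49. In edgeR the extra term for 15 µM had no member past the threshold (log2 -2.49 for ADH6 to 1.68 for HSD17B2, adjusted p 0.526 to 0.970), where 1.09% of all genes passed.

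Adding copper to arsenic at 5 µM left 0 of 6 genes apart with TMM scaling, beside 30.2% of all genes. KYNU was at 29.7 against 47.2 CPM (ratio 0.629, 0.466 to 0.845) and MYH4 at 49.3 against 33.2 CPM (1.49, 1.12 to 1.99), both within a factor of 2 on this scale. Without TMM scaling MYH4 (log2 1.24 in place of 0.57) and TM4SF4 (1.70 in place of 1.03) were apart and higher, 2 of 6 genes beside 29.2% of all genes. The lower KYNU level is reversed to log2 0.01 without TMM scaling and to 0.17 with the GC and length trend removed. ATP2B2 had a ratio of 1.14 (0.830 to 1.58). HSD17B2, TM4SF4 and ADH6 had at most 12 counts in either library, and ratios of 1.74, 2.18 and 0.654 whose intervals include 1. The edgeR extra term for copper ran from -0.67 to 0.59 with adjusted p 1 for each member, and over all genes 0% passed, 428 had an unadjusted p under 0.05 and DESeq2 called 0.

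The relatives of the 6 genes were taken from pathway and family lists. The acetaminophen coefficient was negative for 18 of 23 steroid genes, 8 of 10 alcohol and aldehyde dehydrogenases and 13 of 17 liver transcription factors. It was negative for 7 of 12 kynurenine genes, 4 of 7 myosins, 2 of 2 L6 relatives and 2 of 8 calcium pumps and exchangers. The median of this coefficient over all genes was -0.04, so a negative sign was common, and the share of all genes with it was not counted. Some listed genes rest on few counts, such as AKR1C4 with 24 over the 9 libraries. Over 79 listed genes other than the members, edgeR called 0 for caffeine, exosomes and arsenic (smallest adjusted p 0.433, 1 and 0.0695). At an unadjusted p under 0.05 there were 7, 0 and 10 of them (8.86%, 0% and 12.7%, beside 7.31%, 0.62% and 9.16% of all genes), shares near the background. DESeq2 called 0, 0 and 1, the last being AKR1D1 with arsenic. AKR1D1, the steroid reductase of bile acid synthesis, was at 14.5 CPM in the control, 14.0 with exosomes and 53.5 with caffeine. With acetaminophen it was at 4.91 CPM alone, 2.54 CPM with exosomes and 1.88 CPM with caffeine, and it was at 1.70 to 2.60 CPM in the arsenic libraries.

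Of the 12 other kynurenine pathway genes tested, 7 had a negative acetaminophen coefficient (median log2 -0.53) and 6 a negative arsenic coefficient (median -0.10). The medians over all genes were -0.04 and 0.07. GOT2, an aminotransferase, was at 186, 157, 193, 136, 131 and 87.5 CPM in the 6 libraries without arsenic and at 64.9 to 113 CPM with arsenic. QPRT, which turns quinolinic acid into a precursor of NAD, was at 73.0 to 193 CPM without arsenic and at 77.0, 86.1 and 243 CPM with it. AFMID, the formamidase that yields kynurenine, was at 137 CPM in acetaminophen with caffeine, where KYNU had 1 count. None of these 3 was above the control in all 3 arsenic libraries, as KYNU was. AFMID was at 45.4 CPM in the control, lower at 15 µM arsenic (16.9 CPM) and with copper (38.6 CPM), and higher at 5 µM arsenic. Among the arsenic libraries, AFMID and GOT2 had the same order as KYNU, highest at 5 µM and lowest at 15 µM. QPRT was highest with copper.

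Of 10 other alcohol and aldehyde dehydrogenase genes tested, 8 had a negative acetaminophen coefficient (median -0.79) and 7 a negative arsenic coefficient (median -0.50). ALDH1A1, which oxidises retinal, was the most abundant of them at 234 CPM (arsenic 15 µM) to 1540 CPM (arsenic 5 µM). ADH5, the glutathione-dependent formaldehyde dehydrogenase and a neighbour of ADH6, was at 457 CPM with acetaminophen against 154 in the control, and at 77.5 against 226 CPM in the caffeine pair. ALDH3A2, which oxidises fatty aldehydes, was at 142 against 119 CPM in the caffeine pair. The acetaminophen and arsenic 5 µM libraries were high for ADH5 and ALDH1A1 beside the control. Both also showed the fall with GC content given above, whose part in these levels was not tested.

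Of 23 other steroid dehydrogenase and conjugation genes tested, 18 had a negative acetaminophen coefficient (median -0.88) and 13 a negative arsenic coefficient (median -0.36). AKR1C1, a ketosteroid reductase, was at 88.4, 122 and 81.0 CPM in the 3 acetaminophen libraries where the partners held 283, 221 and 146 CPM on the 3 backgrounds. It was at 333, 1091 and 1156 CPM in the arsenic libraries, where HSD17B2 was lower than in the control. At 5 µM the AKR1C1 level was close to the 283 CPM of the control. AKR1C2 was at 90.2, 167 and 330 CPM in the arsenic libraries. AKR1C1 and AKR1C2 are close in sequence, and reads may be split between them. HSD17B4, a peroxisomal enzyme of fatty acid oxidation, was at 37.7 to 211 CPM.

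Of 8 other calcium pump and exchanger genes tested, 6 had a positive acetaminophen coefficient (median 0.51) and 7 a positive arsenic coefficient (median 0.88), where ATP2B2 was negative for both. ATP2A2, the pump of the endoplasmic reticulum, was at 340 to 742 CPM. ATP2B1, the widely expressed plasma membrane pump, was at 339 CPM with acetaminophen beside 95.5 CPM in the control, whereas the exosome pair held 182 CPM without and 135 CPM with acetaminophen and the caffeine pair 110 and 91.6 CPM. ATP2C1, the pump of the Golgi, was at 194, 61.0 and 84.6 CPM in the 3 acetaminophen libraries where the partners held 47.3, 74.1 and 65.9 CPM, so it was higher on 2 of the 3 backgrounds and lower with exosomes. Of 7 other myosin heavy chains tested, 4 had a negative acetaminophen coefficient (median -0.07). The non-muscle myosins MYH9 (484 to 1560 CPM), MYH10 (134 to 335 CPM) and MYH14 (20.9 to 229 CPM) were present in every library, whereas MYH4 was at 0 to 1.27 CPM with acetaminophen.

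TM4SF1, the L6 relative next to TM4SF4 on the chromosome, was at 61.1, 52.1 and 17.2 CPM in the 3 acetaminophen libraries where the partners held 173, 159 and 167 CPM, apart and lower in each pair. With arsenic it was at 97.0, 76.4 and 66.4 CPM. TM4SF5 was at 2.11, 21.6 and 10.6 CPM in the 3 acetaminophen libraries where the partners held 30.9, 19.7 and 12.6 CPM, and TM4SF20 had 13 counts in all. Of 17 liver transcription factor genes tested, 13 had a negative acetaminophen coefficient (median -0.51), 12 a positive caffeine coefficient (median 0.73, beside 0.12 over all genes) and 11 a negative arsenic coefficient (median -0.22). HNF4A, the factor that controls much of hepatocyte identity, was at 433, 259 and 541 CPM in the 3 acetaminophen libraries where the partners held 408, 412 and 1072 CPM, and at 151 to 231 CPM with arsenic. PROX1 was at 222, 140 and 63.7 CPM in the 3 acetaminophen libraries where the partners held 169, 256 and 165 CPM, and AHR at 56.8 to 279 CPM over the 9 libraries.

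**Figure D4:**
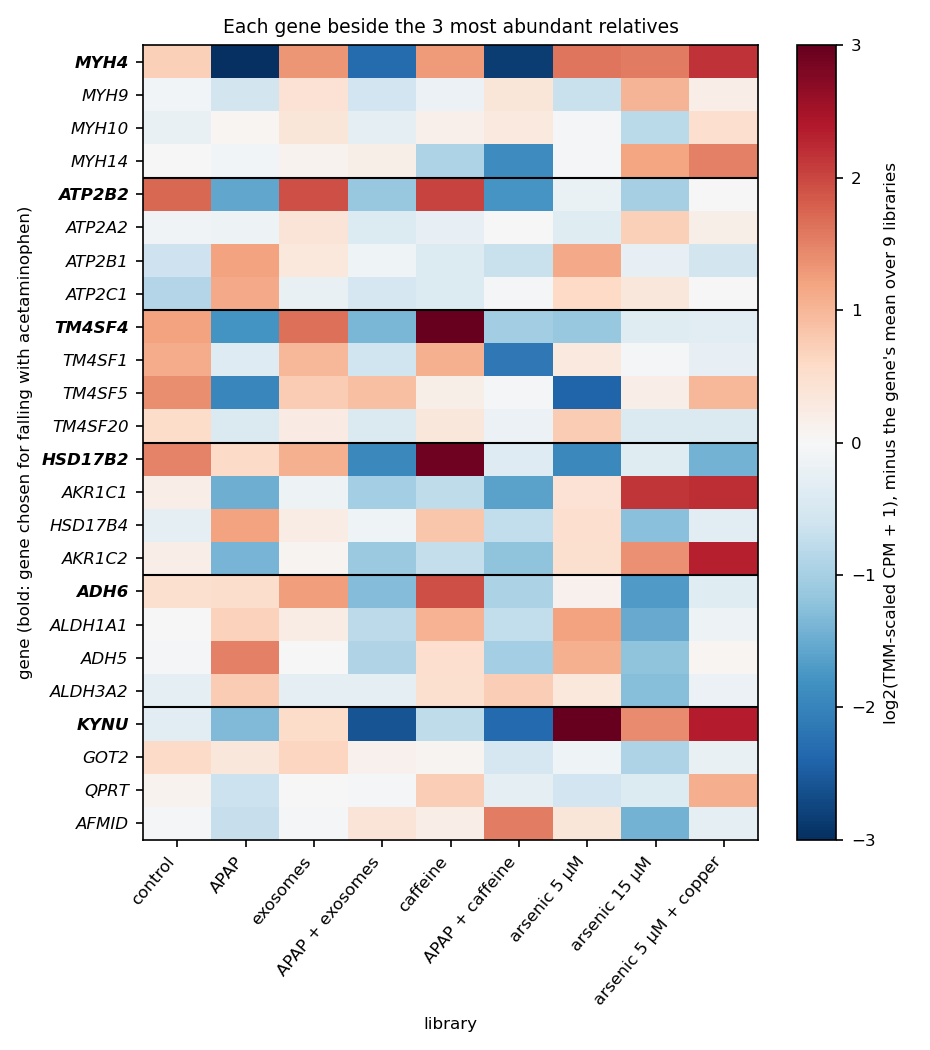
Log2(CPM + 1) minus the gene's mean over the 9 libraries for each of the 6 genes (bold) and the 3 most abundant relatives in its list, by library. KYNU is red in the arsenic libraries, where its level is 15.1 to 47.2 CPM, whereas GOT2 is at 64.9 to 113 CPM there and drawn in blue.

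Of the 2 protein-coding genes on each side of each member, 15 of 24 were tested. Those apart and lower with acetaminophen were 2 of 15 without other treatment (SEC13 and TM4SF1), 1 of 15 with exosomes (TM4SF1) and 5 of 15 with caffeine (TM4SF1, SLC6A11, ADH5, ADH4 and ADH1B), to be read beside the shares of all genes given above. The last 3 are all the tested neighbours of ADH6. TM4SF1 alone was apart and lower in all 3 pairs, and PLCG2, a phospholipase gene near HSD17B2, was apart and higher in all 3 (17.5, 16.5 and 54.3 CPM, where the partners held 0.965, 3.28 and 4.56 CPM). The genes ADH4, ADH1A and ADH1B beside ADH6 had 57, 22 and 36 counts over the 9 libraries. ADH4 was at 5.03 CPM and ADH1B at 3.51 CPM with caffeine, and both were at or under 1.51 CPM in all other libraries. Caffeine was also the deepest library. The floor was 2.89 CPM in the control and 3.82 CPM in acetaminophen with exosomes. Levels this low are poorly measured in the shallow libraries, so a likeness to ADH6 cannot be read from this order.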

How the data were processed

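Total RNA of 9 HuH-7 cultures was sequenced as 1 library each. The values the authors deposited are raw counts of reads for each Ensembl gene, in 1 file per library. Per the submitters' processing notes, TopHat2 2.0.13, HTSeq 0.6.1 and GRCh37 were used. Annotation release and strand setting: not given in the sources used here. HTSeq summary lines (42.3% to 70.3% of the reads) were left out.

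A gene needed 1 CPM or more in 2 or more libraries to be kept (18237 genes) and scaled by TMM. Names, exon length and GC content came from GENCODE 29 and RefSeq on GRCh38, and no coordinates were converted. An additive edgeR 4.0.16 quasi-likelihood model (R 4.3.3) had terms for acetaminophen, exosomes, caffeine and arsenic, with 4 residual degrees of freedom. No condition is replicated, so departures from additivity serve as the spread. The arsenic libraries share the arsenic term although dose and copper differ, so differences among them are also part of that spread. Extra terms (arsenic at 15 µM, copper, acetaminophen by exosomes, acetaminophen by caffeine) were added singly. P-values were adjusted over all genes by Benjamini-Hochberg with a threshold of 0.05. The SE is the absolute log2 coefficient divided by the square root of F. Ratios of 2 libraries have exact conditional binomial 95% intervals, and apart calls used 0.5 prior counts.

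The members and lists were chosen with earlier results of these data known. Named genes are the 6 members, the 3 other genes of each list with the highest mean CPM, the 2 protein-coding neighbours on each side, and per member the 3 genes (mean at least 5 CPM) with the highest Pearson's r. Some genes that this rule names are not reported here. AKR1D1 in the steroid list was named after its values were seen. Alternatives were DESeq2 1.42.0 and its size factors, no count filter, no TMM, library subsets and each library left out. Neuron markers (9 matched) summed to 19.4 to 89.3 CPM and blood cell markers to 26.2 to 272 CPM, with HBA2, PPBP and PF4 at 0.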

Additional observations from a re-analysis of the deposited data

How the results depend on the processing

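With 1 library per condition, no result has a replicate check, and single counts limit the acetaminophen with exosomes library. The 15 of 18 lower acetaminophen ratios of the 6 genes became 16 with DESeq2 size factors, 15 without TMM and 16 with the GC and length trend removed, the last chosen after seeing the data. These counts describe the choice, since the genes were picked on these ratios. In the same order of settings, starting with TMM, 12.1%, 13.4%, 11.6% and 6.66% of all genes were apart and lower without other treatment. The shares were 5.17%, 3.30%, 3.82% and 7.46% with exosomes, and 13%, 12.4%, 14.8% and 12.6% with caffeine. Over all genes, acetaminophen calls (4) became 46 with no count filter, 49 by DESeq2, 249 in the 6 libraries without arsenic and 58 without the acetaminophen and arsenic 5 µM libraries. Caffeine calls (15) became 7 with DESeq2 size factors, 49 with no count filter, 51 by DESeq2, 292 without arsenic and 72 without the acetaminophen and arsenic 5 µM libraries. Exosome calls (0) became 3 without arsenic. Arsenic calls (90) became 24 with DESeq2 size factors, 269 with no count filter and 170 by DESeq2. Calls for 15 µM (198) became 96 by DESeq2. Leaving out each library in turn gave 0 to 179 calls for acetaminophen, 0 to 221 for caffeine, 0 to 3 for exosomes, 0 to 780 for arsenic, 17 to 775 for 15 µM, 0 to 52 for copper and 0 to 0 for both interactions. The cause was not tested.

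The caffeine coefficient of ATP2B2 turned to -0.0503 with DESeq2 size factors and to -0.0488 by DESeq2. That of ADH6 turned to 1.47, and its exosome coefficient to 0.75, without the acetaminophen and arsenic 5 µM libraries. The exosome coefficient of KYNU turned to -0.0067 by DESeq2. Leave-one-out ranges for caffeine were -0.32 to 0.42 (ATP2B2), -1.12 to 1.55 (HSD17B2) and -1.86 to 1.61 (ADH6). For exosomes they were -2.52 to 0.88 (ADH6) and -4.48 to 0.89 (KYNU). No member passed for either term in these edgeR or DESeq2 fits. No replicate block could be fitted, since the labels give no replicate numbers and each condition has 1 library. The additive model already compares acetaminophen within each background through its exosome and caffeine terms.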

Other observations

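By Pearson's r of log2(CPM + 1) over the 9 libraries, among 10984 genes whose mean level reached 5 CPM, genes most like each member were found as a description. For TM4SF4 they included ASGR1, a hepatocyte receptor for desialylated glycoproteins (r 0.93), and SOAT2, which esterifies cholesterol (r 0.93). ASGR1 was at 11.9, 20.3 and 12.3 CPM in the 3 acetaminophen libraries where the partners held 89.7, 60.3 and 133 CPM, and at 8.08, 23.0 and 26.0 CPM with arsenic. For HSD17B2 they were UGT2B4, a glucuronosyltransferase (r 0.94), AKR1D1 (r 0.92) and SLC44A3 (r 0.91).

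For MYH4 the most alike genes included ZHX2, a transcription factor gene (r 0.98), and JADE2 (r 0.96). ZHX2 was at 11.2, 19.1 and 10.7 CPM in the 3 acetaminophen libraries where the partners held 60.8, 67.5 and 82.7 CPM, and at 81.2, 123 and 115 CPM with arsenic, on counts larger than those of MYH4. For KYNU they were MARS1, the methionyl-tRNA synthetase (r 0.97), TTC39A (r 0.96) and THBS4, a thrombospondin (r 0.96). MARS1 was at 216, 127 and 127 CPM in the 3 acetaminophen libraries where the partners held 283, 255 and 184 CPM, and at 515, 421 and 424 CPM with arsenic. For ATP2B2 they were TBC1D30 (r 0.95), TRMT61A (r 0.95) and TMEM147-AS1 (r 0.94), and for ADH6 the cadherin CDH1 (r 0.95), ST6GAL1 (r 0.94) and MKKS (r 0.93).

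NR1H4, the bile acid receptor in the liver transcription factor list, was picked after its values were seen. It was at 18.2, 22.9 and 6.97 CPM in the 3 acetaminophen libraries where the partners held 120, 100 and 72.0 CPM. With arsenic at 5 µM, at 15 µM and with copper it was at 74.0, 9.32 and 58.6 CPM. ATP2B4, another plasma membrane calcium pump picked in the same way, was at 59.0, 47.1 and 103 CPM in the 3 acetaminophen libraries where the partners held 13.5, 23.3 and 44.0 CPM, opposite to ATP2B2.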
